A study of Homo sapiens with 8 samples.

Results

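DCIS.COM and MCF10A cells that both expressed *MALINC1* from a lentiviral vector were compared over all genes of the deposited RNA-seq table. The 4 libraries concerned, of 8 in the series, were chosen by their labels alone, 2 labelled MCF10A pLOC-*MALINC1* and 2 labelled DCIS.COM pLOC-*MALINC1*, and all 13842 genes in the table were tested. The remaining 4 libraries, MCF10A pLOC-empty and DCIS.COM pLOC-empty with 2 each, gave the same comparison without the lncRNA and are read beside it. MCF10A is a non-tumorigenic line of human breast epithelium, and DCIS.COM (MCF10DCIS.com) descends from MCF10A cells that had been transformed with mutant HRAS and passed as xenografts. Both lines were stably transduced and kept under blasticidin selection, so the pLOC-empty cells carry vector and selection too, and RNA came from plates that were not yet confluent. Both media were DMEM/F-12 with horse serum, but that of MCF10A also held EGF, hydrocortisone, insulin and cholera toxin. The line and its medium can therefore not be told apart in any difference below. Each line is 1 genetic background, and the labels do not say whether the libraries of a group came from separate cultures or transductions. The p-values thus measure only the spread between these libraries, which may be technical.

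*MALINC1* is a lncRNA of the mitotic phase. Keratins, laminins and desmosomes hold a basal breast epithelial cell together and to its basement membrane. Mutant HRAS keeps the ERK cascade active, and that cascade induces its own inhibitors, the DUSP phosphatases and the Sprouty and Spred proteins, beside growth factors and AP-1 transcription factors. Differences are given as log2 CPM in DCIS.COM minus log2 CPM in MCF10A, where CPM is the read count normalised to library size, so that positive values are higher in DCIS.COM, and a number in parentheses after a gene or its levels is this log2 difference with *MALINC1* unless said otherwise. The deposited log2 values contain a small prior count, which understates the difference of low genes. A gene was called when limma's Benjamini-Hochberg adjusted p over all genes was under 0.01 and the difference exceeded 2-fold. CPM are not divided by gene length, so levels are compared between libraries and not between genes. In bulk libraries, fewer cells of a kind and less RNA per cell cannot be told apart.

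Depth was between 20604377 and 37550457 reads on genes per library, and the 2 rows *RN7SL1* and *RN7SL2*, of the signal recognition particle RNA, took 8.22% to 15.7% of them. Whole reads could be recovered for 100% of the deposited values within 0.05 read. The floor of a group was set at 3 reads in each of its libraries. Folds against a group at or under it were taken against 3 reads a library and are written as at least. This is a convention and not a confidence limit, and it leaves out all variation other than counting error. *MALINC1* itself, on the minus strand of chromosome 5 from 139450897 to 139488859 in GRCh37 (hg19), was at 13.2 and 11.7 CPM in MCF10A and 24.5 and 19.2 CPM in DCIS.COM with its vector. With pLOC-empty it was at 1.0 and 1.51 CPM in MCF10A and 1.35 and 1.15 CPM in DCIS.COM, so every transduced library was above every control library. *MALINC1* was 1.73-fold higher in DCIS.COM than in MCF10A with the vector (log2 0.79, standard error 0.19, adjusted p = 0.00187), which is below the fold required for a call. With empty vector the difference was 0.02 (standard error 0.19, adjusted p = 0.932). The contrast between these line differences was 0.77 (standard error 0.27, adjusted p = 0.0299 from limma) and was not called. In the libraries with its vector, the lines thus differed in the *MALINC1* level as well as in origin and medium. The part of that level in the results below was not tested.

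Markers were read first. Of 10 tested markers of basal-like breast epithelium, 8 were called lower and 1 higher in DCIS.COM, the latter being *ITGB4*, a hemidesmosome integrin. This was 90.0% called, beside 26.6% of all genes tested. The summed level of the 10 markers was 42819.9 and 44119 CPM in the MCF10A libraries and 5718 and 5835 CPM in DCIS.COM. The epithelial label held in both lines. *CDH1*, which encodes E-cadherin, was at 717 and 661 CPM in MCF10A and 319 and 331 CPM in DCIS.COM, and *EPCAM*, an epithelial adhesion molecule, was at 97.4 and 92.6 CPM in MCF10A and 285 and 293 CPM in DCIS.COM. Of 4 tested luminal markers only the pioneer factor *FOXA1* was called (25.0% called, close to the 26.6% of all genes). *FOXA1* was at 16.7 and 15.5 CPM in MCF10A and 35.1 and 30.6 CPM in DCIS.COM. *ESR1*, the estrogen receptor gene, stood at 1.98 and 1.89 CPM in MCF10A and 3.84 and 3.72 CPM in DCIS.COM. Markers of other cell types were few. Among the leukocyte markers, 3 of 7 were in the table, led by the actin-bundling *LCP1* at 111 and 107 CPM in MCF10A and 9.06 and 10.6 CPM in DCIS.COM. The fibroblast list kept only *COL1A1*, at 7.38 and 6.61 CPM in MCF10A and 1.6 and 1.51 CPM in DCIS.COM, and the endothelial list only *PECAM1*, at 0.808 and 0.680 CPM in MCF10A and 0.0874 and 0.177 CPM in DCIS.COM. Of the contractile myoepithelial markers 3 of 5 were in the table and 1, the oxytocin receptor gene *OXTR*, was called, at 2.65 and 2.98 CPM in MCF10A and 0.670 and 0.857 CPM in DCIS.COM. Summed over each list, the MCF10A and DCIS.COM libraries were at 121 to 124 and 17.2 to 18.5 CPM for leukocytes and at 7.44 to 8.23 and 5.88 to 7.03 CPM for contractile cells, and no marker in the table was without reads in a whole group. The part of such cells in the line differences was not tested.

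With *MALINC1*, 3686 genes were called between the lines, 26.6% of those tested. Of these, 1999 (14.4%) were higher and 1687 (12.2%) lower in DCIS.COM. With empty vector, 3959 genes were called (28.6%), 2153 (15.6%) higher and 1806 (13%) lower. Counts of calls in the gene lists are to be read beside these shares of all genes. The comparison with *MALINC1* and the one with empty vector share no library. A total of 2787 genes was called in both in the same direction, 75.6% of the calls with *MALINC1* and 70.4% of those with empty vector. For 2771 of these, none of the 4 DCIS.COM libraries overlapped any of the 4 MCF10A libraries. The genes had been picked by such differences, so this count describes the calls and gives them no further support. Another 34 genes were called in both but in opposite directions. The remaining calls were made with *MALINC1* alone for 865 genes, of which 771 had the same sign with empty vector, and with empty vector alone for 1138. Passing the threshold once does not show that a gene differed between the vectors, so the difference between the line differences was tested directly. It was called for 1273 genes (9.20%), 551 (3.98%) more positive and 722 (5.22%) more negative with *MALINC1*. That test uses all 8 libraries. Of the 865 genes called with *MALINC1* alone 233 passed it, and of the 1138 called with empty vector alone 352 did. Across the 13842 genes, which are not independent replicates, Pearson's r between the line differences with each vector was 0.895 and Spearman's rho was 0.831. The median size of a difference was 0.52 with *MALINC1* and 0.56 with empty vector on the log2 scale. Standard errors had a median of 0.073 over all genes and 0.16 over called ones.

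**Figure D1:**
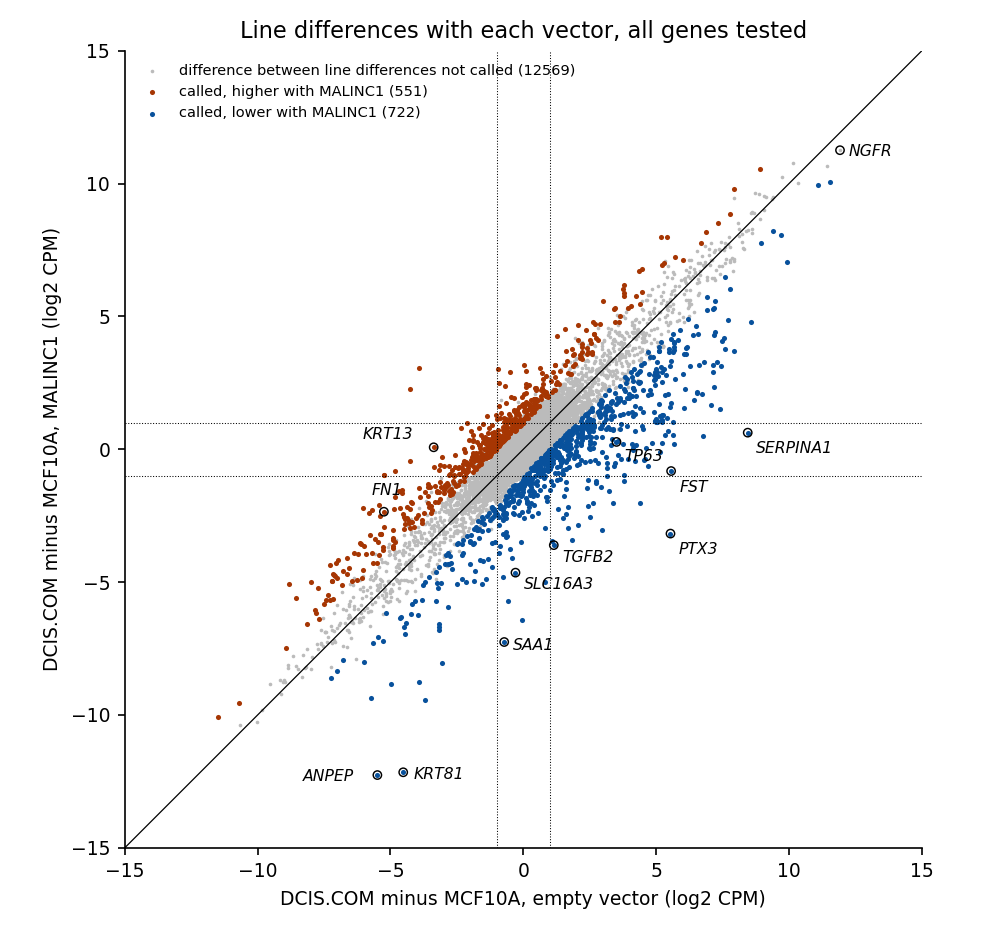
Each point is a gene, with its log2 difference DCIS.COM minus MCF10A in pLOC-empty libraries on the horizontal axis and in pLOC-MALINC1 libraries on the vertical axis, with the diagonal as a line and 2-fold differences as dotted lines. Genes whose difference between the line differences was called are coloured, the 551 more positive with MALINC1 above the diagonal and the 722 more negative below it, where KRT81, SAA1, PTX3 and SERPINA1 lie far off.

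The largest differences ran from undetected to abundant. *NGFR*, the low-affinity neurotrophin receptor, lies on chromosome 17 from 47572655 to 47592370. It was at 0.0279 and 0 CPM in MCF10A and 207 and 205 CPM in DCIS.COM, a difference of at least 2089-fold. The D-type cyclin *CCND2* was at 0 and 0 CPM in MCF10A and 124 and 124 CPM in DCIS.COM (at least 1254-fold higher). Both MCF10A libraries were at the floor for these genes and both DCIS.COM libraries well above it. *SPARC*, a secreted matricellular glycoprotein, was at 0.0279 and 0 CPM in MCF10A and 133 and 143 CPM in DCIS.COM, and *COL9A3*, a chain of type IX collagen, at 0 and 0.0756 CPM in MCF10A and 150.4 and 157 CPM in DCIS.COM. These are differences of at least 1399-fold and at least 1563-fold. The microfibril gene *FBN2* (at least 879-fold higher), the carboxypeptidase-like *CPVL* (at least 884-fold) and the cadherin *CDH19* (at least 895-fold) made up the same group. *CALB2*, which encodes the calcium buffer calretinin, was at 0.279 and 0.151 CPM in MCF10A and 307 and 289 CPM in DCIS.COM, a log2 difference of 10.06. All 8 were higher in DCIS.COM with empty vector too.

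In the other direction, *ANPEP*, the membrane alanyl aminopeptidase CD13 on chromosome 15 from 90328126 to 90358633, was at 569 and 554 CPM in MCF10A and 0.0291 and 0.0591 CPM in DCIS.COM, at least 6379-fold lower in DCIS.COM. *KRT81*, a hair keratin on chromosome 12 from 52679697 to 52685318, was at 4308 and 4373 CPM in MCF10A and 0.903 and 0.857 CPM in DCIS.COM, a log2 difference of -12.16 (standard error 0.033, adjusted p = 1.44e-21). The groups were more than 3 orders of magnitude apart and the libraries within each group within a few percent of one another. *KLK7*, an epidermal kallikrein protease, was at 253 and 224 CPM in MCF10A and 0.0874 and 0.236 CPM in DCIS.COM (-10.07). *MSLN*, the mesothelin gene, was at 65.1 and 64.4 CPM in MCF10A and 0 and 0 CPM in DCIS.COM (at least 736-fold lower). The metallothionein *MT1E* was at least 986-fold lower, the pancreatic lipase-related *PNLIPRP3* at least 989-fold, the histone gene *H4C13* at least 1087-fold and *VSTM2L* at least 604-fold. Reads of *KRT81*, *MT1E* and *H4C13* could be shared with near-identical copies, so the level of the single gene is uncertain for these.

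**Figure D2:**
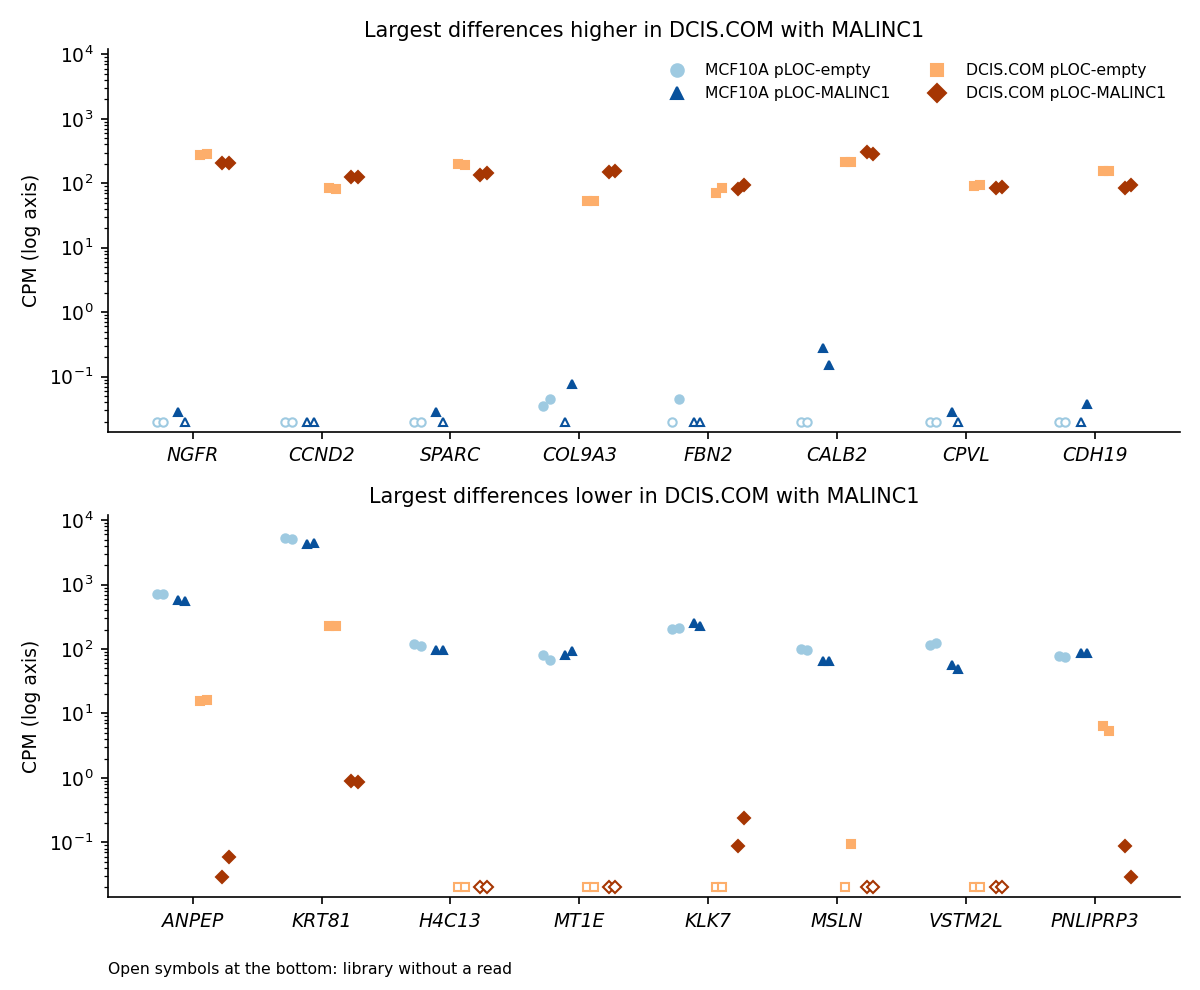
Levels in CPM on a log axis of the 8 genes most strongly higher and the 8 most strongly lower in DCIS.COM among genes called with MALINC1, 1 symbol per library in the 4 groups, with open symbols at the bottom for libraries without a read. The MCF10A and DCIS.COM symbols with MALINC1 do not overlap for any of the 16, and for ANPEP, KRT81 and PNLIPRP3 the DCIS.COM libraries with MALINC1 also lie below those with empty vector.

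Basal and stratified keratins, the intermediate filaments of the basal and upper epidermal layers, were mostly lower in DCIS.COM. Of 15 tested, 10 were called lower and 3 higher, with a median of -2.65 against 0.01 over all genes. *KRT5* was at 8766 and 8687 CPM in MCF10A and 1366 and 1410.1 CPM in DCIS.COM (log2 -2.65) and its basal partner *KRT14* at 2954 and 2890.2 CPM in MCF10A and 21.1 and 22.6 CPM in DCIS.COM (-7.06). The hyperproliferation keratins *KRT6A* (-6.79), *KRT16* (-4.92) and *KRT17* (-3.94) were lower in the same way, while *KRT23* (5.40) and the mucosal *KRT4* (1.25) were higher. With empty vector 11 were lower and 1 higher. *KRT13*, a keratin of mucosal epithelium, differed between the vectors. It was at 39.6 and 35.6 CPM in MCF10A and 37.5 and 41.6 CPM in DCIS.COM with *MALINC1* and at 20.8 and 23.1 CPM in MCF10A and 2.15 and 1.96 CPM in DCIS.COM with empty vector, so the lines overlapped in the former and not in the latter (difference between the line differences 3.45, adjusted p = 6.26e-10). *KRT4* also changed sign, from -1.37 to 1.25.

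Simple and hair-type keratins split by kind, with 2 of 9 called higher and 5 lower. The simple-epithelial *KRT8* was at 845 and 786 CPM in MCF10A and 1781 and 1828 CPM in DCIS.COM and called higher (1.15), and its partner *KRT18* had a log2 difference of 0.90, short of the fold required. *KRT7* was at 3816 and 3696 CPM in MCF10A and 2257 and 2246 CPM in DCIS.COM (-0.74). The 3 hair keratins of chromosome 12 were called lower. *KRT86* (52643084 to 52702947) was at 179 and 135 CPM in MCF10A and 0.320 and 0.266 CPM in DCIS.COM (-8.74) and *KRT83* (52708085 to 52715182) at 73.7 and 12 CPM in MCF10A and 0.0583 and 0.0296 CPM in DCIS.COM, where the MCF10A libraries differed too much for a common limit of the fold. With empty vector *KRT81* was at 5227 and 5148 CPM in MCF10A and 226 and 226 CPM in DCIS.COM and *KRT86* at 179 and 190.2 CPM in MCF10A and 11.4 and 13.1 CPM in DCIS.COM. The DCIS.COM libraries with *MALINC1* were the lowest of the 8 for both genes, and the line difference was more negative with *MALINC1*, by -7.64 and -4.83. *KRT86* as annotated spans *KRT81* on the opposite strand, and the strand setting of the counting is not given in the sources used here, so their reads cannot be told apart. Over the whole list the median was -4.90, or -4.56 with genes at the floor set to their bound.

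The cornified envelope, the cross-linked shell of the outer epidermis, had 14 of 21 tested genes called lower and 2 higher (76.2% called). *IVL*, the precursor involucrin, was at 167 and 145 CPM in MCF10A and 7.25 and 8.04 CPM in DCIS.COM (-4.33), and *TGM1*, the transglutaminase that cross-links it, was at 28.3 and 28.5 CPM in MCF10A and 1.08 and 0.680 CPM in DCIS.COM (-4.94). *SCEL* (sciellin, -3.50) and *CSTA* (cystatin A, -3.50) were also lower. The elastase inhibitor *PI3* went the other way, at 4.15 and 3.63 CPM in MCF10A and 28.8 and 27.9 CPM in DCIS.COM (2.85). Of 10 clade B serpins, intracellular protease inhibitors, 8 were called lower and 0 higher with *MALINC1*, against 4 lower with empty vector. *SERPINB2*, which inhibits urokinase, was at 133 and 118 CPM in MCF10A and 1.75 and 1.42 CPM in DCIS.COM with *MALINC1* (-6.25) and at 11.9 and 14 CPM in MCF10A and 0.746 and 0.764 CPM in DCIS.COM with empty vector (-3.97). *SERPINB13* was at 22.6 and 18.7 CPM in MCF10A and 0.146 and 0.0591 CPM in DCIS.COM with *MALINC1* (-6.94). The difference between the line differences was called more negative for 5 of the 10 and more positive for 0 (5.22% and 3.98% of all genes), with -2.28 for *SERPINB2* and -1.28 for *SERPINB1*. *SERPINB3* and *SERPINB4* are near-identical and may share reads.

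Kallikreins, the serine proteases that shed the outer epidermis, went both ways. Beside *KLK7*, *KLK8* was lower (-5.82) and *KLK6* higher (1.65), while *KLK5* was at 229 and 208 CPM in MCF10A and 259 and 281 CPM in DCIS.COM with *MALINC1* and at 368 and 366 CPM in MCF10A and 95.0 and 102 CPM in DCIS.COM with empty vector. For 4 of 5 tested kallikreins the line difference was called more positive with *MALINC1* (3.98% of all genes). Among these, *KLK7* had few reads in DCIS.COM, and its difference of 1.43 between the line differences fell to 0.19 with log2(CPM + 0.5). Desmosome genes had 6 of 12 called lower and 0 higher. *DSP*, the desmoplakin plaque protein, was at 907 and 859.8 CPM in MCF10A and 376 and 419 CPM in DCIS.COM (-1.16), and the desmosomal cadherin *DSG3* at 742 and 685 CPM in MCF10A and 303 and 331 CPM in DCIS.COM (-1.17). Among 14 S100 calcium-binding proteins 2 were called higher and 4 lower (42.9% called, beside the 26.6% of all genes). *S100A1* was at 0.223 and 0.453 CPM in MCF10A and 117 and 113 CPM in DCIS.COM (8.20) and *S100B* was at least 213-fold higher. *S100P* was lower, at 301 and 291 CPM in MCF10A and 35.9 and 41.4 CPM in DCIS.COM (-2.94). *S100A8*, a subunit of the calprotectin dimer, was at 4.01 and 3.82 CPM in MCF10A and 0.262 and 0.236 CPM in DCIS.COM (-3.64), whereas its partner *S100A9* was at 25.6 and 26.3 CPM in MCF10A and 47.0 and 51.5 CPM in DCIS.COM, an uncalled difference of 0.92.

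*LAMA3* and *LAMB3*, chains of the laminin that anchors basal cells to the basement membrane, were lower. *LAMA3* was at 2389 and 2285 CPM in MCF10A and 149.5 and 161 CPM in DCIS.COM (-3.91) and *LAMB3* at 1877 and 1855 CPM in MCF10A and 348 and 362 CPM in DCIS.COM (-2.39). *LAMA4*, a chain of endothelial and mesenchymal laminins, was higher at 8.78 and 9.52 CPM in MCF10A and 102 and 102 CPM in DCIS.COM (3.47). Of 29 laminins and other matrix glycoproteins, 14 were called lower and 7 higher. *TGFBI* (keratoepithelin, -5.32), the fibrillin *FBN1* (-4.98) and fibronectin *FN1* (-2.35) were among the lower ones. For *FN1* the libraries read 382 and 353 CPM in MCF10A and 72.7 and 71.3 CPM in DCIS.COM with *MALINC1* and 1489.6 and 1554 CPM in MCF10A and 39.1 and 40.9 CPM in DCIS.COM with empty vector, so the lines were apart in both and closer together with *MALINC1* (difference 2.90). The proteoglycan *VCAN* reversed, from 2.06 with empty vector to -2.86 with *MALINC1*. *THBS1* (thrombospondin 1) was at 2347 and 2299 CPM in MCF10A and 1728 and 1831 CPM in DCIS.COM with *MALINC1* (-0.39, not called) and at 796 and 779.7 CPM in MCF10A and 3663 and 3372 CPM in DCIS.COM with empty vector (2.16).

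Collagens were called in 81.8% of 22 tested chains, 9 higher and 9 lower. Apart from *COL9A3*, the higher ones included *COL27A1* (at least 127-fold), the basement-membrane *COL18A1* at 2.54 and 2.80 CPM in MCF10A and 44.6 and 44.5 CPM in DCIS.COM (4.03) and *COL8A1* (3.65). *COL7A1*, the anchoring fibril of the epidermis, was lower at 36.4 and 36.7 CPM in MCF10A and 2.30 and 2.25 CPM in DCIS.COM (-3.97). *COL4A4* and *COL4A3*, chains of basement-membrane type IV collagen, were at log2 differences of -3.55 and -1.42, and of -6.12 and -3.52 with empty vector. *COL16A1* was at 20.1 and 19.1 CPM in MCF10A and 39.7 and 33.3 CPM in DCIS.COM with *MALINC1* and at 2.48 and 2.79 CPM in MCF10A and 59.8 and 58.4 CPM in DCIS.COM with empty vector, an uncalled difference in the former (0.89) and a called one in the latter (4.45).

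Matrix proteases and their inhibitors had 2 higher and 4 lower calls of 14 (42.9% called, beside the 26.6% of all genes). *MMP16*, a membrane-type metalloproteinase, was at 0.697 and 0.755 CPM in MCF10A and 44.4 and 48.6 CPM in DCIS.COM (5.87), and *MMP28* at 64.8 and 62.1 CPM in MCF10A and 5.01 and 5.70 CPM in DCIS.COM (-3.55). *MMP14*, the main membrane-type collagenase, was called lower with *MALINC1* (-1.26) and not with empty vector (-0.07), and the difference of -1.19 between the vectors was called. *TIMP3*, a matrix-bound inhibitor, was at 106 and 113 CPM in MCF10A and 97.5 and 92.4 CPM in DCIS.COM with *MALINC1* and at 78.3 and 74.0 CPM in MCF10A and 888 and 934 CPM in DCIS.COM with empty vector, so its line difference went from 3.58 to -0.21, the latter not called. Of the plasminogen activator system 2 of 5 were called higher and 2 lower, where urokinase (*PLAU*) was lower (-3.24) and tissue-type activator (*PLAT*) higher (2.89). *SERPINE2*, an inhibitor of these proteases, was higher (2.13).

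Among adhesion genes, 7 of 17 integrins were called lower and 2 higher (52.9% called, beside the 26.6% of all genes). *ITGA5*, the fibronectin receptor subunit, was at 244 and 232 CPM in MCF10A and 34.4 and 34.3 CPM in DCIS.COM (-2.79), and *ITGB2*, a leukocyte integrin subunit, at 7.41 and 7.48 CPM in MCF10A and 0.437 and 0.384 CPM in DCIS.COM (-3.97). *ITGB4* (1.36) and *ITGB3* (3.55) were higher. Cadherins went both ways. *CDH1* (-1.08) and P-cadherin *CDH3* (-1.35) were lower, *CDH4* was at least 72.4-fold lower, and *CDH11* (at least 123-fold) and *CDH13* (at least 89.0-fold) were higher. *VIM*, the mesenchymal filament vimentin, was at 32.4 and 35.9 CPM in MCF10A and 389 and 402 CPM in DCIS.COM (3.53). The list of cadherins and epithelial-mesenchymal regulators thus held 4 higher and 9 lower calls among 23 (56.5% called). *TP63*, the transcription factor of basal epithelium on chromosome 3 from 189349178 to 189615065, was at 41.7 and 40.1 CPM in MCF10A and 49.1 and 49.98 CPM in DCIS.COM with *MALINC1* and at 5.24 and 4.60 CPM in MCF10A and 55.8 and 57.4 CPM in DCIS.COM with empty vector. The lines were 3.51 apart on the log2 scale without the lncRNA and 0.28 with it, the latter not called, and the difference of -3.23 was called (adjusted p = 1.07e-10). The receptor tyrosine kinase *AXL* was at 11.6 and 14.9 CPM in MCF10A and 13.1 and 14.3 CPM in DCIS.COM with *MALINC1* and at 2.86 and 1.77 CPM in MCF10A and 57.8 and 56.2 CPM in DCIS.COM with empty vector, so the lines overlapped in the former and were 4.62 apart in the latter. Tight junction genes had 5 lower and 1 higher calls of 16 (37.5% called, beside the 26.6% of all genes). Occludin (*OCLN*) had a log2 difference of -1.64, and no tight junction gene passed the test of the difference between vectors.

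*HRAS*, the oncogene of the DCIS.COM lineage, lies on chromosome 11 from 532242 to 537321. These values do not tell the mutant from the normal allele. It was at 56.3 and 60.1 CPM in MCF10A and 202 and 208 CPM in DCIS.COM with *MALINC1*, 3.52-fold higher in DCIS.COM (log2 1.82, standard error 0.04, adjusted p = 5.52e-13), and at 41.8 and 41.7 CPM in MCF10A and 243 and 235 CPM in DCIS.COM with empty vector. Of 19 tested genes of RAS and ERK feedback, 8 were called higher and 0 lower with *MALINC1* (42.1% called, beside the 26.6% of all genes). With empty vector 13 were called higher and 0 lower, where 28.6% of all genes were called. The median was 0.95 with *MALINC1* and 1.56 with empty vector. *SPRY1*, a Sprouty inhibitor of receptor signaling, was at 1.14 and 1.36 CPM in MCF10A and 18.4 and 19.3 CPM in DCIS.COM (3.84), and *SPRY4* at 7.69 and 7.86 CPM in MCF10A and 18.7 and 19.7 CPM in DCIS.COM (1.30). *EGR1*, an immediate-early factor, was higher by 2.90, the ETS factor *ETV1* by 1.81 and *PHLDA1* by 1.10. The ERK phosphatase *DUSP6* was at 64.9 and 65.0 CPM in MCF10A and 114 and 107 CPM in DCIS.COM with *MALINC1* and at 12.9 and 14.6 CPM in MCF10A and 127 and 137 CPM in DCIS.COM with empty vector. The lines did not overlap in either case, but the difference was 0.77 and uncalled in the former and 3.26 in the latter. *ETV4* went from 1.11 to an uncalled -0.42. For 7 of the 19 the line difference was called more negative with *MALINC1*, for 0 more positive (5.22% and 3.98% of all genes), and beside *DUSP6* (-2.50) these included *SPRY1* (-1.82), *SPRY4* (-1.77) and *PHLDA1* (-1.54).

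EGF receptor ligands bind the receptor that the MCF10A medium also stimulated. *EREG* (epiregulin) was at 16.5 and 17.3 CPM in MCF10A and 137 and 138 CPM in DCIS.COM (3.02) and *NRG1*, a ligand of the related ERBB3 and ERBB4, at 0.251 and 0.453 CPM in MCF10A and 37.7 and 36.2 CPM in DCIS.COM (6.49). *AREG* (amphiregulin) was lower, at 303 and 312 CPM in MCF10A and 61.3 and 56.5 CPM in DCIS.COM (-2.38), as was *EPGN* (epigen, -2.79). The receptor gene *EGFR* was at 131 and 123 CPM in MCF10A and 59.4 and 65.3 CPM in DCIS.COM (-1.02). *HBEGF*, a heparin-binding ligand, was at 17.9 and 18.6 CPM in MCF10A and 20.7 and 19.9 CPM in DCIS.COM with *MALINC1* and at 2.14 and 1.99 CPM in MCF10A and 40.4 and 40.8 CPM in DCIS.COM with empty vector, so that its line difference went from 4.25 to 0.15 (uncalled). *TGFA* likewise went from 1.71 to an uncalled 0.35.

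AP-1 is the dimer of JUN and FOS proteins. *JUN* was at 87.0 and 89.2 CPM in MCF10A and 12.1 and 13.3 CPM in DCIS.COM with *MALINC1* (-2.79, adjusted p = 1.6e-12) and at 171 and 160.3 CPM in MCF10A and 8.95 and 7.88 CPM in DCIS.COM with empty vector (-4.29). *FOS* was at 12.3 and 12.4 CPM in MCF10A and 2.04 and 1.83 CPM in DCIS.COM with *MALINC1* (-2.63) and at 3.86 and 4.03 CPM in MCF10A and 2.19 and 2.43 CPM in DCIS.COM with empty vector (-0.75, not called). For both the DCIS.COM libraries were below the MCF10A libraries with *MALINC1*, and the line difference moved in opposite directions, by 1.5 for *JUN* and -1.88 for *FOS*. *FOSL1* and *FOSL2*, Fos-related partners, were lower with *MALINC1* (-1.01 and -2.34). Of 14 tested AP-1 subunits 7 were called lower and 2 higher with *MALINC1* (64.3% called, beside the 26.6% of all genes).

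Receptors and targets of NOTCH, a cell-contact receptor, had 4 higher and 1 lower calls of 15 (33.3% called, close to the 26.6% of all genes). *NOTCH1* was at 60.6 and 59.3 CPM in MCF10A and 177 and 176 CPM in DCIS.COM (1.56). The ligand *DLL1* was at 0 and 0 CPM in MCF10A and 0.379 and 0.148 CPM in DCIS.COM with *MALINC1*, where the DCIS.COM libraries were uneven and low, and at 0.0345 and 0 CPM in MCF10A and 7.98 and 8.07 CPM in DCIS.COM with empty vector (at least 67.9-fold higher there). *HES2*, a HES-type repressor, was at 43.1 and 39.9 CPM in MCF10A and 5.62 and 4.85 CPM in DCIS.COM with *MALINC1* (-2.97) and at 4.76 and 5.80 CPM in MCF10A and 9.23 and 9.50 CPM in DCIS.COM with empty vector (0.83, not called).

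Genes of the TGF-beta and BMP system were called in 65.6% of 32 genes, 11 higher and 10 lower. *BMP7* was at 0.585 and 0.567 CPM in MCF10A and 19.7 and 18.2 CPM in DCIS.COM (4.88) and *BMP8B* at 0.139 and 0.0756 CPM in MCF10A and 6.55 and 6.56 CPM in DCIS.COM (5.24), both higher in DCIS.COM. *FSTL3*, which binds activins, was at 330.0 and 323 CPM in MCF10A and 1.72 and 2.04 CPM in DCIS.COM (-7.39). *TGFB2* was at 13.8 and 12.5 CPM in MCF10A and 0.845 and 1.21 CPM in DCIS.COM with *MALINC1* (-3.61) and at 15.2 and 12.3 CPM in MCF10A and 29.2 and 31.6 CPM in DCIS.COM with empty vector (1.15), so its direction reversed. The ID genes are immediate targets of BMP receptors. *ID1* was at 113 and 113 CPM in MCF10A and 250.5 and 260.5 CPM in DCIS.COM with *MALINC1* (1.18) and at 173 and 188 CPM in MCF10A and 98.5 and 99.2 CPM in DCIS.COM with empty vector (-0.87, not called). *ID2* went from -0.83 to 1.36 and *ID4* from -0.93 to 2.48, in both cases called with *MALINC1* alone, and *ID3* from a called -1.66 to an uncalled 0.81. *SMAD6*, an inhibitory SMAD that BMPs induce, was at 1.84 and 1.44 CPM in MCF10A and 14.7 and 15.6 CPM in DCIS.COM with *MALINC1* (3.16) and at 5.45 and 5.31 CPM in MCF10A and 6.02 and 4.87 CPM in DCIS.COM with empty vector. For these 5 genes the line difference was called more positive with *MALINC1*, by 2.05 (*ID1*) to 3.41 (*ID4*). The activin antagonist *FST* was at 27.6 and 25.5 CPM in MCF10A and 14.1 and 15.9 CPM in DCIS.COM with *MALINC1* and at 0.276 and 0.443 CPM in MCF10A and 20.2 and 19.6 CPM in DCIS.COM with empty vector, a difference of -6.38 between the line differences. Of 11 WNT ligands, antagonists and responsive genes 4 were called higher and 5 lower. The non-canonical *WNT5A* (-4.87) and *WNT7A* (-5.06) were lower, and the WNT-responsive factor *LEF1* was at least 87.5-fold higher.

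Hydrocortisone, a glucocorticoid, was in the MCF10A medium alone, so for the genes that glucocorticoids induce the line and the hormone cannot be told apart. Of 18, 12 were called lower and 3 higher in DCIS.COM with *MALINC1*, and 11 and 4 with empty vector. *FKBP5*, a co-chaperone of the receptor, was at 288 and 289 CPM in MCF10A and 25.0 and 26.0 CPM in DCIS.COM (-3.50). *TSC22D3*, known as GILZ, was at 35.2 and 35.5 CPM in MCF10A and 2.18 and 2.66 CPM in DCIS.COM (-3.83), and *ZBTB16* was at least 15.1-fold lower. *DUSP1* (-3.0) and *PER1* (-2.21) were lower as well, while *PDK4*, a mitochondrial kinase that spares glucose, was higher at 1.56 and 1.17 CPM in MCF10A and 25.9 and 27.7 CPM in DCIS.COM (4.24). Cholera toxin raises cyclic AMP. Genes induced by that messenger had 5 higher and 4 lower calls of 13, with the salt-inducible kinase *SIK1* at 145 and 136 CPM in MCF10A and 25.4 and 24.2 CPM in DCIS.COM (-2.50) and the nuclear receptor *NR4A1* at 0.418 and 0.264 CPM in MCF10A and 7.54 and 9.02 CPM in DCIS.COM (4.36).

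Metallothioneins, small cysteine-rich proteins that bind zinc and copper, were lower in DCIS.COM. *MT2A* was at 368 and 432 CPM in MCF10A and 27.2 and 25.9 CPM in DCIS.COM (-3.91), *MT1X* at 56.4 and 69.0 CPM in MCF10A and 1.81 and 1.36 CPM in DCIS.COM (-5.25) and *MT1F* at 6.83 and 6.99 CPM in MCF10A and 0.117 and 0.148 CPM in DCIS.COM (-5.10). In every case both DCIS.COM libraries were far below both MCF10A libraries. Of 8 tested genes of the list, which also holds the zinc exporter *SLC30A1*, 7 were called lower and 0 higher, with a median of -4.41 (or -4.23 with genes at the floor set to their bound) against -3.91 with empty vector. Their reads may be shared between the near-identical MT1 copies. The promoters of *MT2A* and *MT1X* are printed because these genes lie in 1 cluster on chromosome 16 and were both lower. They span 250 bases before to 50 after the start in RefSeq (GRCh38.p14, chr16:56608334-56608633, plus strand and chr16:56682220-56682519, plus strand). Capitals mark matches on either strand to the metal response element, searched as TGCACNC or TGCGCNC, of which *MT2A* held 8 and *MT1X* 4, with matches next to each other not overlapping. The same letters occurred in 33.4% of all 27305 genes with a promoter and in 45.6% of 10497 genes tested here. A match thus describes the sequence and does not by itself show a site.
MT2A: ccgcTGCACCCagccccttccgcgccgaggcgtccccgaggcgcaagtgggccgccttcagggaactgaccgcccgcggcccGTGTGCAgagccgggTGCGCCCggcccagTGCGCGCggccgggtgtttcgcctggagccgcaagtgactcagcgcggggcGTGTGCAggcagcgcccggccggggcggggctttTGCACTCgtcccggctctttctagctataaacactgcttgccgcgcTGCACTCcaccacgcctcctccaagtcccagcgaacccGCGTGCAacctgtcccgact
MT1X: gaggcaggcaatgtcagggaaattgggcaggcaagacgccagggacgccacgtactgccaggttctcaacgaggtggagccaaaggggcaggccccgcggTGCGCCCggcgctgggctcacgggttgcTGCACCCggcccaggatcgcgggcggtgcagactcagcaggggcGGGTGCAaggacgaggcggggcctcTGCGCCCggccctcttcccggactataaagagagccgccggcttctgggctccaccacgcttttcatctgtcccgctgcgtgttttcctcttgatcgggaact

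Some chemokines of the CXC kind, among them those of *CXCL8* and *CXCL1*, draw neutrophils. *CXCL8*, interleukin 8, was at 9.33 and 9.56 CPM in MCF10A and 134 and 124 CPM in DCIS.COM (3.76) and *CXCL1* at 37.7 and 37.1 CPM in MCF10A and 294 and 285 CPM in DCIS.COM (2.95), while *CXCL5* was at least 314-fold lower. *CX3CL1* (fractalkine) was at least 267-fold higher. With empty vector *CXCL8* was at 2.66 and 2.61 CPM in MCF10A and 132 and 109 CPM in DCIS.COM and *CXCL1* at 11.7 and 12.3 CPM in MCF10A and 271 and 236 CPM in DCIS.COM, so the lines were apart in the same direction. The list of 12 had 4 higher and 4 lower calls, and the line difference was called more negative with *MALINC1* for 7 and more positive for 0 (5.22% and 3.98% of all genes), among them *CXCL8* (-1.71), *CXCL1* (-1.44) and *CCL20* (-2.82). Of 10 genes of the interleukin 1 family 1 was called higher and 5 lower. The antagonist *IL1RN* was at 90.3 and 82.7 CPM in MCF10A and 4.63 and 4.37 CPM in DCIS.COM (-4.24) and the decoy receptor *IL1R2* at 6.80 and 6.91 CPM in MCF10A and 0.291 and 0.355 CPM in DCIS.COM (-4.14). *IL1B* was at 2.62 and 2.87 CPM in MCF10A and 2.39 and 2.07 CPM in DCIS.COM with *MALINC1* and at 1.07 and 1.95 CPM in MCF10A and 12.9 and 13 CPM in DCIS.COM with empty vector, a line difference of 3.10 that shrank to an uncalled -0.29.

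Interferon-stimulated genes went both ways, 11 higher and 10 lower of 38 (55.3% called, beside the 26.6% of all genes). *BST2* (tetherin) was at 0.279 and 0.264 CPM in MCF10A and 74.7 and 76.0 CPM in DCIS.COM (7.78) and *IFITM1* at 0.919 and 0.529 CPM in MCF10A and 11.2 and 11 CPM in DCIS.COM (3.86), whereas *EPSTI1* was at 8.78 and 9.82 CPM in MCF10A and 0.320 and 0.236 CPM in DCIS.COM (-4.75) and *IFI27* had a log2 difference of -4.67. Genes of HLA class I presentation were called in 20.0%, beside the 26.6% of all genes. *HLA-B* was at 11.7 and 11.4 CPM in MCF10A and 117 and 122 CPM in DCIS.COM (3.36), and reads of the highly similar HLA genes may be misassigned.

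Cholesterol synthesis is switched on when sterols are scarce. Of 23 tested genes, 1 was called higher and 3 lower in DCIS.COM with *MALINC1* (17.4% called, beside the 26.6% of all genes). With empty vector 7 were called higher and 0 lower, where 28.6% of all genes were called. The median was -0.33 with *MALINC1* and 0.71 with empty vector. *HMGCS1*, which makes the HMG-CoA of the pathway, was at 78.2 and 72.1 CPM in MCF10A and 51.6 and 57.1 CPM in DCIS.COM with *MALINC1* and at 35.7 and 36.0 CPM in MCF10A and 106 and 113 CPM in DCIS.COM with empty vector. Its line difference was -0.47 (uncalled) in the former and 1.6 in the latter. *SQLE*, squalene epoxidase, was at 131 and 125 CPM in MCF10A and 67.5 and 69.8 CPM in DCIS.COM with *MALINC1* (-0.90, not called) and at 52.0 and 57.3 CPM in MCF10A and 89.0 and 89.6 CPM in DCIS.COM with empty vector (0.71, not called). *MSMO1*, a sterol demethylase, was called lower with *MALINC1* (-1.19) and uncalled with empty vector (0.51). For 13 of the 23 the line difference was called more negative with *MALINC1*, for 0 more positive, where 5.22% of all genes were called more negative. The members with the largest values were the sterol carrier *STARD4* (-2.32), *HMGCS1* (-2.07, adjusted p = 1.01e-09), *MSMO1* (-1.70), *SQLE* (-1.61) and *MVD* (-1.33).

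The promoters of *HMGCS1*, *MSMO1* and *IDI1* are printed because these genes passed that test together (RefSeq, GRCh38.p14, chr5:43313363-43313662, minus strand, chr4:165327419-165327718, plus strand and chr10:1049070-1049369, minus strand, each written in the direction of transcription). Capitals mark CCAATNA on either strand, a CCAAT box of the kind that NF-Y binds, with 1, 2 and 1 matches that do not overlap. These letters occurred in 12 of 18 members of the cholesterol list with a promoter (66.7%) and in 7 of the 9 that were called in the difference (77.8%), beside 19.6% of the genes tested and 16.9% of all genes. The AP-1 letters TGANTCA were in 0 of the 18 and in 7.41% of the genes tested. No match says only that these letters are not in the 300 bases searched. *HMGCS1* has 2 promoters in RefSeq and *IDI1* has 3, and for each the one with the most CCAAT matches is printed. The genes printed all hold a match, so they are not a sample of the list. Shares here and for the metal response element count a gene when any of its promoters matched.
HMGCS1: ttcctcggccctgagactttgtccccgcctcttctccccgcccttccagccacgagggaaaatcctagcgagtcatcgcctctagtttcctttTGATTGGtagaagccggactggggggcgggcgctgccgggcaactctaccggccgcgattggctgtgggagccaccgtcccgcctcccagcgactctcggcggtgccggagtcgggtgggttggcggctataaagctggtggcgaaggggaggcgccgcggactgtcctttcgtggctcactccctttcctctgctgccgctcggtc
MSMO1: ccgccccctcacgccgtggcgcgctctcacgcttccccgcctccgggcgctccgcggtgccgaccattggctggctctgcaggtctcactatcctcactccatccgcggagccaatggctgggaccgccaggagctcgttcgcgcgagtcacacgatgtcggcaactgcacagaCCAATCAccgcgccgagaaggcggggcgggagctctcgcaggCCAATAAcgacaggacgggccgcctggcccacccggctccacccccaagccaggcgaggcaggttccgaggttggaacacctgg
IDI1: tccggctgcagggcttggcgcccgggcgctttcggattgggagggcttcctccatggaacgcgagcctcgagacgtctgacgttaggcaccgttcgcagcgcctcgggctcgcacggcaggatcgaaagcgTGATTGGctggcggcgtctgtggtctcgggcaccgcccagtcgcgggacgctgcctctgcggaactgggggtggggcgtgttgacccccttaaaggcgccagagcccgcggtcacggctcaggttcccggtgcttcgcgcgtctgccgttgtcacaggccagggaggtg

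**Figure D3:**
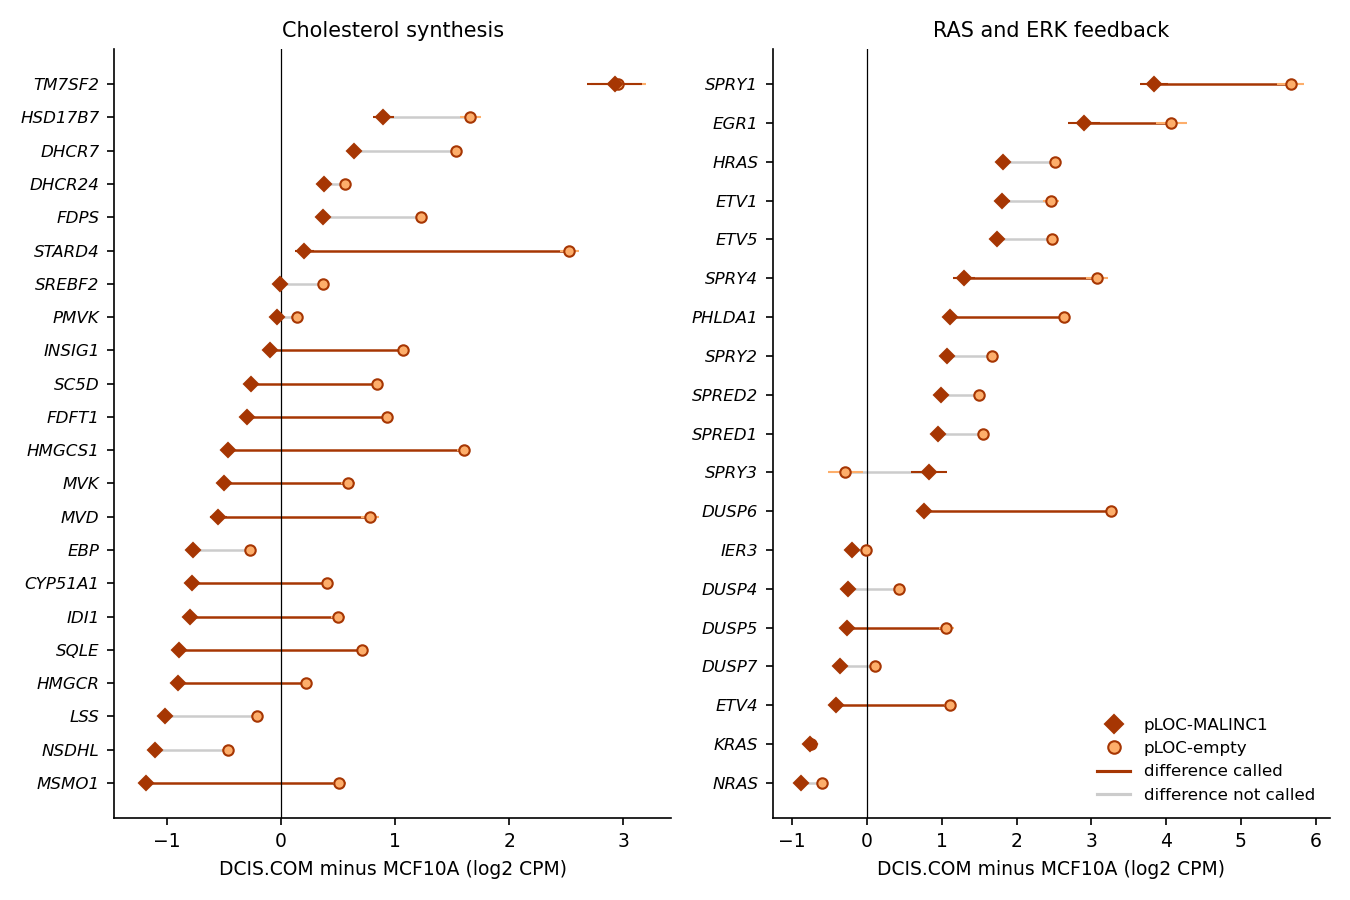
Log2 CPM in DCIS.COM minus MCF10A for genes of cholesterol synthesis (left) and the tested genes of RAS and ERK feedback (right), with MALINC1 (diamonds) and with empty vector (circles), standard errors as thin bars and coloured joins where the difference between the vectors was called. The diamonds lie left of the circles for each called gene drawn in either panel.

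In glycolysis and the hypoxia response, 7 of 29 were called higher and 5 lower (41.4% called, beside the 26.6% of all genes). Hexokinase *HK2* was at 81.6 and 79.4 CPM in MCF10A and 208 and 207 CPM in DCIS.COM (1.36), the lactate dehydrogenase *LDHA* at 3567 and 3379 CPM in MCF10A and 1200.4 and 1185 CPM in DCIS.COM (-1.54) and the carbonic anhydrase *CA9* at 4.85 and 5.67 CPM in MCF10A and 18.6 and 18.7 CPM in DCIS.COM (1.82). Of 16 aldehyde dehydrogenases 5 were called higher and 3 lower (50% called), the folate enzyme *ALDH1L1* at least 136-fold higher and its mitochondrial relative *ALDH1L2* lower (-5.61). *ALDH1A1*, a retinal dehydrogenase, was at 0.306 and 0.113 CPM in MCF10A and 1.11 and 0.975 CPM in DCIS.COM with *MALINC1* and at 0 and 0 CPM in MCF10A and 2.94 and 3.20 CPM in DCIS.COM with empty vector, a line difference of 2.07 with the former and of at least 26.0-fold with the latter.

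Genes of growth were called in 1.30% (cytosolic ribosomal proteins), 7.5% (mitosis and spindle) and 2.50% (DNA replication), beside the 26.6% of all genes. Of 77 cytosolic ribosomal proteins only *RPL8* was called, at 1806 and 1753 CPM in MCF10A and 760.0 and 759 CPM in DCIS.COM (-1.23), and the list median was -0.10, or 0.08 when libraries were rescaled to totals without *RN7SL1* and *RN7SL2*. Of 40 mitosis and spindle genes 3 were called lower, *CCNB1*, *CDC25B* and *ANLN*, with a median of -0.51. The mitotic cyclin *CCNB1* was at 345 and 393 CPM in MCF10A and 176 and 180.5 CPM in DCIS.COM (-1.05). Of 40 genes of DNA replication only *MCM2*, a helicase subunit, was called higher, at 147 and 151 CPM in MCF10A and 342 and 347 CPM in DCIS.COM (1.2), where 6 had been lower with empty vector. Targets of p53 had 1 higher and 5 lower calls of 28 (21.4% called, beside the 26.6% of all genes). *TP53I3* was at 223 and 209 CPM in MCF10A and 27.8 and 27.4 CPM in DCIS.COM (-2.96). The cell-cycle inhibitor *CDKN1A* was at 207 and 209.8 CPM in MCF10A and 165 and 167 CPM in DCIS.COM (-0.33, not called). In the BCL2 family 1 of 15 was called higher and 4 lower (33.3% called, close to the 26.6% of all genes). *BCL2* was higher (2.52) and *BCL2L1*, which encodes BCL-XL, lower (-1.79). HOX genes were called in 33.3% of 18, also close to the 26.6% of all genes, with a log2 difference of 2.10 for *HOXC13*.

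**Figure D4:**
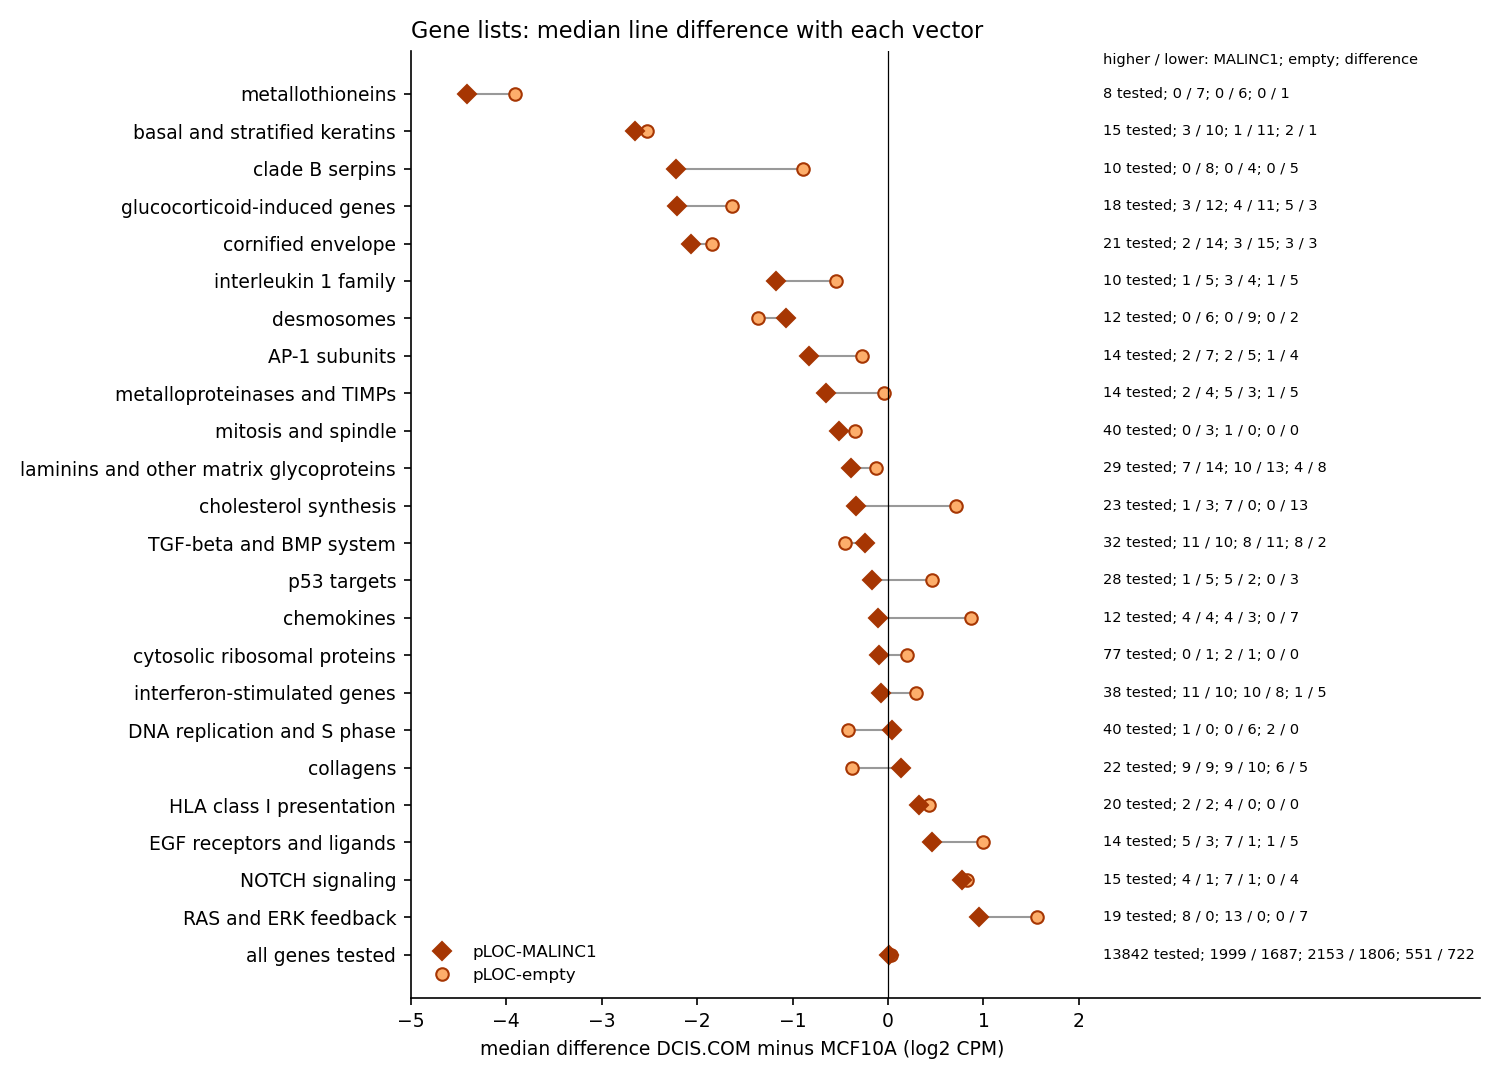
For selected gene lists, the median log2 difference DCIS.COM minus MCF10A over its tested members with MALINC1 (diamonds) and with empty vector (circles), with the members called higher and lower in each comparison, and more positive and more negative in the difference, at the right. The lists drawn leave out the simple and hair-type keratins. Among them, the medians with MALINC1 of metallothioneins, basal and stratified keratins and clade B serpins are the lowest. That of RAS and ERK feedback is the highest. Medians of cholesterol synthesis, p53 targets, chemokines, cytosolic ribosomal proteins and interferon-stimulated genes lie above 0 with empty vector and below 0 with MALINC1. Rescaled to totals without RN7SL1 and RN7SL2, the median with MALINC1 stayed below 0 only for cholesterol synthesis (-0.15). It was then 0.01 for p53 targets, 0.08 for chemokines, 0.08 for ribosomal proteins and 0.11 for interferon-stimulated genes. Medians of collagens and of DNA replication and S phase go the other way, below 0 with empty vector and above 0 with MALINC1.

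Over all genes, the line difference that the vector changed was taken from the test of the difference itself. Among genes called with *MALINC1* alone, *SAA1*, an acute-phase protein, was at 37.3 and 32.4 CPM in MCF10A and 0.117 and 0.207 CPM in DCIS.COM with *MALINC1* (-7.25) and at 25.4 and 25.9 CPM in MCF10A and 16.5 and 14.7 CPM in DCIS.COM with empty vector (-0.72). Its near-identical neighbour *SAA2*, which may share reads, had a log2 difference of -6.42. *SLC16A3*, the lactate exporter MCT4, was at 371 and 374 CPM in MCF10A and 14.2 and 15.5 CPM in DCIS.COM with *MALINC1* and at 341 and 351 CPM in MCF10A and 284 and 280.5 CPM in DCIS.COM with empty vector, so the DCIS.COM libraries with *MALINC1* stood apart from the other 6. The palmitoyltransferase *ZDHHC4* (-5.71 against -0.59) and the mucosal scavenger protein *DMBT1* (-5.01 against 0.82) completed the 5.

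Among genes called with empty vector alone, *SERPINA1*, the alpha-1 antitrypsin gene on chromosome 14 from 94843084 to 94857030, was at 2.73 and 2.95 CPM in MCF10A and 4.40 and 4.43 CPM in DCIS.COM with *MALINC1* and at 0.414 and 0.399 CPM in MCF10A and 162 and 171 CPM in DCIS.COM with empty vector. The line difference fell from 8.45 to an uncalled 0.63 (difference -7.82, standard error 0.16, adjusted p = 7.68e-12). *PYCARD*, the inflammasome adaptor, was at 0 and 0.0378 CPM in MCF10A and 0.0291 and 0.0296 CPM in DCIS.COM with *MALINC1* and at 0.0690 and 0 CPM in MCF10A and 5.13 and 4.96 CPM in DCIS.COM with empty vector (at least 42.7-fold higher there). With *MALINC1* the lines were under 2-fold apart for *SERPINA1* and both at the floor for *PYCARD*, and without it they were far apart. *FST* and *RNR1*, the mitochondrial small ribosomal RNA (difference between the line differences -5.10), were of the same class.

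The 34 genes called in opposite directions were lower in DCIS.COM with *MALINC1* and higher without it in 30 cases, and the reverse in 4. *PTX3*, a soluble pattern-recognition protein on chromosome 3 from 157154639 to 157161422, was at 0.697 and 0.907 CPM in MCF10A and 0.0583 and 0 CPM in DCIS.COM with *MALINC1* (at least 9.11-fold lower) and at 0.172 and 0.133 CPM in MCF10A and 10.6 and 10.0 CPM in DCIS.COM with empty vector (5.54). *CD70*, a TNF-family ligand, was at 3.40 and 4.19 CPM in MCF10A and 0.408 and 0.207 CPM in DCIS.COM with *MALINC1* (-3.40) and at 1.90 and 1.90 CPM in MCF10A and 7.37 and 6.59 CPM in DCIS.COM with empty vector (1.84). In both the order of the lines turned over without overlap. *TNFRSF6B*, a decoy receptor for FAS ligand (2.95 to -3.04), the bradykinin receptor *BDKRB2* (3.37 to -2.02) and the ubiquitin ligase adaptor *KLHL13* (4.38 to -2.04) also changed direction.

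Of 2787 genes called in both in one direction, 507 also passed the test of the difference, so the line difference was present with both vectors and of unequal size. Apart from *KRT81*, these were led by *ANPEP*, at 723 and 721 CPM in MCF10A and 15.6 and 16.4 CPM in DCIS.COM with empty vector, 45.0-fold lower in DCIS.COM there against at least 6379-fold lower with *MALINC1*. *ART3*, an ADP-ribosyltransferase relative, was at 0 and 0.0378 CPM in MCF10A and 0.117 and 0.355 CPM in DCIS.COM with *MALINC1* and at 0 and 0 CPM in MCF10A and 10.0 and 8.88 CPM in DCIS.COM with empty vector. Of the 1273 genes that passed, the change from empty vector to *MALINC1* within a line was itself called in MCF10A alone for 427, in DCIS.COM alone for 347, in both for 82 and in neither for 417.

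**Figure D5:**
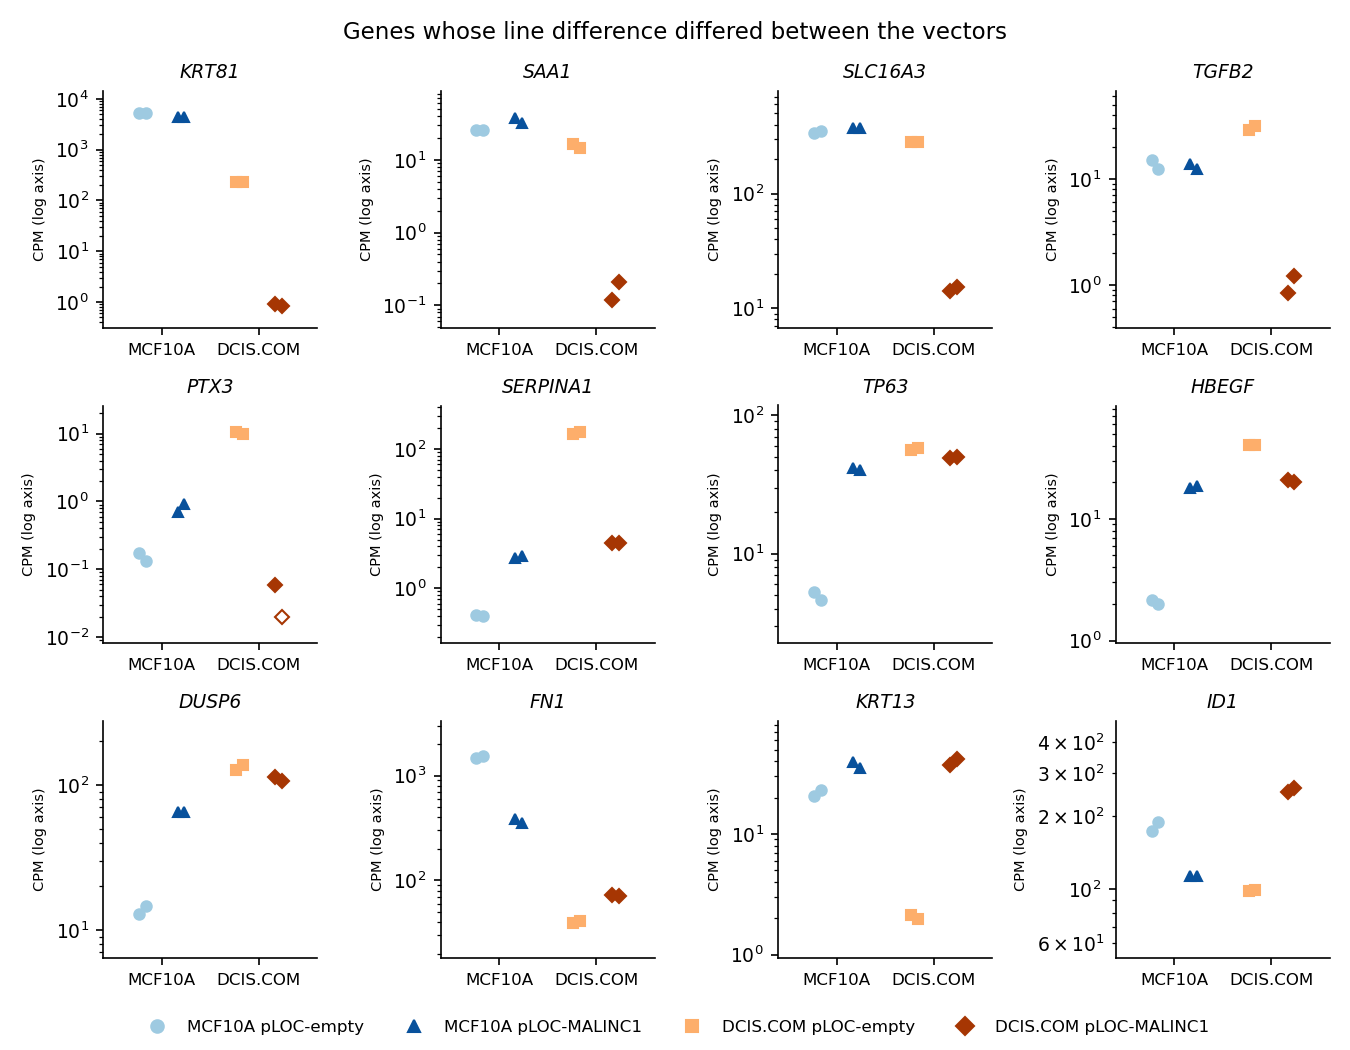
Levels in CPM on a log axis, 1 symbol per library in the 4 groups, of 12 genes whose line difference differed between the vectors, with an open symbol for a library without a read. DCIS.COM with MALINC1 stands apart from the other groups for KRT81, SAA1, SLC16A3 and TGFB2. Both lines move toward each other for SERPINA1 and HBEGF, and mainly MCF10A moves for TP63, FN1 and DUSP6.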

How the data were processed

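RNA-seq of transduced MCF10A and DCIS.COM cells was analysed from the deposited table, with groups taken from the sample labels. Per the paper's methods, the authors sequenced 76 nt paired-end reads, used Rsubread for alignment to hg19, featureCounts for counting on UCSC known genes and then edgeR. The deposited values are on the log2 scale, as normalized CPM to which a library-scaled prior count of 2 had been added. Tool versions, strand setting and filter are not given in the sources used here. CPM and whole reads were recovered from the log2 values. Depth limits the precision of low genes, and the floors are a set number of reads that cover counting error at most.

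Linear models were fitted in limma 3.58.1 (R 4.3.3, trend, 7.98 prior and 4 residual degrees of freedom, Benjamini-Hochberg adjustment), with 1 mean per group over all 8 libraries, contrasts between the lines with each vector and a contrast for the difference between these. Genes at 0.5 CPM or more in 2 libraries were tested, which kept all 13842. A call needed adjusted p below 0.01 and over 2-fold. The fit was tested on simulated data. Tables and figures used Python 3.11.15, pandas 2.3.3, numpy 2.4.6 and matplotlib 3.10.9.

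The comparison and the gene lists were chosen with earlier results of these data known. Named genes are *MALINC1*, the 8 largest differences each way among calls with 5 CPM or more in a pLOC-*MALINC1* group, the 5 largest changes in each of 4 classes of call, and in each list up to 4 largest calls, members that differed between vectors, up to 2 defining uncalled members and genes the paper names, together with the lineage markers. A few of these genes are not reported here. Chromosome positions of genes are those of GENCODE on GRCh37, matched by symbol for 13111 genes (94.7%). Promoters are from RefSeq on GRCh38.p14 and were used for their letters only. Alternatives changed the pseudocount, filter, scaling, model and thresholds, and left out each library in turn. The RT-qPCR, migration, tissue and tumor data of the study were not used here.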

Additional observations from a re-analysis of the deposited data

Results flagged for a closer look

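The line difference itself differed between pLOC-*MALINC1* and pLOC-empty libraries for 1273 genes, tested by the contrast between the line differences over all 8 libraries. Of the genes called in opposite directions with each vector, the 5 with the largest values had differences between the line differences of -8.71 (*PTX3*), -6.42 (*KLHL13*), -5.99 (*TNFRSF6B*), -5.39 (*BDKRB2*) and -5.23 (*CD70*) on the log2 scale. For *PTX3* the size depends on the prior count, because both DCIS.COM libraries with *MALINC1* were at the floor. Groups of 2 libraries allow no search for single outlying libraries.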

How the results depend on the processing

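With 2 libraries a group, calls of low genes are limited by depth, since 1263 of the 3686 calls with *MALINC1* came from genes that did not reach 5 CPM in either group and 492 involved a group at the floor. The counts of calls were within 1.5 times those reported under each alternative run for pseudocount, filter, scaling and model. At any fold they rose to 10102 with *MALINC1*, 10230 with empty vector and 4972 for the difference between the line differences. Tested against a 2-fold difference, they fell to 2436 with *MALINC1* and 432 for the difference. Leaving out 1 library at a time gave 3555 to 3696 calls with *MALINC1*, 3884 to 3953 with empty vector and 1123 to 1210 for the difference, the lone library being assumed to vary like the other groups.

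Rescaling to totals without *RN7SL1* and *RN7SL2* moved the median of all genes to 0.18 with *MALINC1* and 0.14 with empty vector, and gave 3907, 4045 and 1293 calls, 63.7% of the first higher in DCIS.COM against 54.2%. The *MALINC1* difference ranged from 0.75 to 0.97 over the other alternatives and from 0.62 to 0.97 without 1 library (adjusted p from limma 0.00359 to 0.0364). Of 224 named genes called with *MALINC1*, 30 lost the call under some alternative and 0 changed sign. Of 189 called in the difference, 53 lost it, and *CALB2* (0.20) and *NRG1* (0.22) changed sign with log2(CPM + 1). Uncalled line differences changed sign for *PYCARD* (-0.12 with quantile normalization, -0.12 to 0.50 without 1 library, the lowest without MCF10A pLOC-*MALINC1* replicate 1), *AXL* (-0.12 to 0.25, the lowest without the same library), *KRT13* (-0.0018 to 0.15, the lowest without MCF10A pLOC-*MALINC1* replicate 2) and *THBS1* (0.018 with quantile normalization). The cause was not tested.

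The replicate numbers did not pair the samples, with correlations of their deviations between groups from -0.067 to 0.038. A replicate block gave 3690 calls with *MALINC1*, 3962 with empty vector and 1278 for the difference, and a *MALINC1* difference of 0.79 (adjusted p = 0.00232).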

Other observations

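The following groups of genes were chosen after their values had been seen and are given as descriptions. Replication-dependent histone genes, whose transcripts lack a poly(A) tail and package new DNA in S phase, had line differences with a median of 0.39 with *MALINC1* and -0.83 with empty vector over 61 tested genes. With *MALINC1* 8 were called higher and 4 lower, and with empty vector 0 higher and 23 lower. The difference between the line differences was called more positive for 52 and more negative for 0 of them, where 3.98% of all genes were called more positive. Summed over the 61 genes, MCF10A libraries were at 17003 and 17237 CPM with empty vector and at 12385 and 12127 CPM with *MALINC1*. The DCIS.COM libraries were at 10642 and 10309 CPM with empty vector and at 16955 and 17660 CPM with *MALINC1*, so the order of the lines turned over without overlap. Some single members stood apart from the family. *H4C13*, *H3C11* and *H4C9*, on chromosome 6 in GRCh37 (27840926 to 27841312, 27839623 to 27840124 and 27107061 to 27107457), were at or near 0 in every DCIS.COM library. Near-identical histone copies may share reads.

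Rows of mitochondrial ribosomal RNA and of the nuclear MT-RNR2-like copies, 8 in all, summed to 8173.5 and 7623.9 CPM in DCIS.COM with empty vector and to between 202.48 and 368.86 CPM in each of the other 6 libraries. The difference between the line differences was called more negative for all 8. These rows share reads with one another.

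Line differences also ran together along chromosomes. Of 184 genes in the first 22 Mb of chromosome 1, 164 had a positive difference with *MALINC1*, with a median of 0.92 and of 0.91 with empty vector, and 77 were called higher and 6 lower. In the next stretch, from 22 to 40 Mb, 187 genes had medians of -0.25 and -0.19. Clustered protocadherins, adhesion molecules of chromosome 5, had 23 of 29 genes called higher and 0 lower with *MALINC1* and 20 and 1 with empty vector, with medians of 2.05 and 1.76. Their exons are shared between cluster members, so single genes are uncertain.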
